A study of Mus musculus with 15 samples.

Results

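Id2 KO cells were compared with Batf3 KO cells at one stage of dendritic cell development, the Zbtb46-GFP+ cell with intermediate c-Kit of mouse bone marrow. The samples were chosen by their titles, which name the genotype and the stage, and they are 6 of the 15 arrays of the study, 3 for each knockout. The other 9 arrays hold WT Zbtb46-GFP+ cells (3 arrays) and common dendritic cell progenitors (CDPs, 2 arrays per genotype, WT and both knockouts). All groups carried the Zbtb46-GFP reporter, in which green fluorescent protein reads out the Zbtb46 gene. The Id2 KO and WT cells came from chimeric mice and the Batf3 KO cells from reporter mice that the labels do not call chimeric, so the type of host and the lost gene cannot be told apart here. The labels give no age and no strain, and do not say whether the arrays of a group came from separate animals, so the p-values measure the spread between arrays, which may be technical.

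Classical dendritic cells (cDCs) of the cDC1 kind take up dead cells and present their antigens to CD8 T cells, cDC2 cells present to CD4 T cells, and plasmacytoid dendritic cells (pDCs) release type I interferon. Id2 lacks a DNA-binding domain and binds E proteins such as Tcf4, a factor that specifies pDCs, so that they cannot bind DNA. Batf3 is a basic leucine zipper factor that pairs with Jun proteins and, with Irf8, sustains the cDC1 program. Mice without either factor are known to lack mature cDC1 cells, and the comparison asks in what respect the progenitors that remain differ.

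Signal was read on Affymetrix arrays and is given as log2 of the deposited value, on which a step of 1 is a doubling. At the Zbtb46-GFP+ stage the replicate 1 arrays are scaled differently. Their median signal was 23.8 to 24.1, that of the other 12 arrays of the study was 100.8 to 112.1, and 17411 of 28853 probe sets (60.3%) were identical in replicate 1 of the 2 knockouts. The tests therefore rest on replicates 2 and 3, and every pair of values below is given in that order (replicates 1 and 2 for CDPs). The replicate 1 pair was kept aside as a check of direction. The 4 fitted knockout arrays shared one pattern of sex-linked genes, with Xist between 5.28 and 5.71 and the Y-linked gene Kdm5d between 8.32 and 8.97. The replicate 1 arrays differed from each other in it (Xist 3.66 in Id2 KO, 11.02 in Batf3 KO), and WT had another pattern (Xist 11.93 and 12.27). Genes on X and Y were left out. Markers of antigen-presenting cells were high on the 4 arrays, with Cd74 between 12.61 and 13.33, H2-Aa between 13.19 and 13.61 and Itgax between 10.73 and 12.06, while the T cell gene Cd3e lay between 6.74 and 7.10. Zbtb46 itself read 5.95 and 6.08 in Id2 KO and 6.01 and 5.996 in Batf3 KO, below the median probe set of each array, against 7.18 and 6.99 in WT. The sort was made on the reporter protein, so this marker was not borne out at the level of RNA in either knockout.

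Of 19187 genes tested, 116 differed between the knockouts at an adjusted p under 0.05 (0.605%). Of these, 51 were higher in Id2 KO (0.266%) and 65 were lower (0.339%). At an unadjusted p under 0.05 there were 1051, and the median difference over all genes was -0.01. In all 116 called genes the 2 arrays of one knockout lay above the 2 of the other. A call with 2 arrays a side favours such genes, and uncalled genes such as Irf8 and Tcf3 were separate too. The separation is therefore not further evidence. The genes higher in Id2 KO were led by Ly6d, Cdh1, Slamf6 and Nfil3, and those lower were led by Id2, Hpgd and Serpinb10. Because cells were read in bulk, fewer cells of a type and less RNA per cell cannot be told apart. With 2 arrays a side the list of calls was not stable to the loss of 1 array: 37 genes were called without Id2 KO replicate 2, 46 without Id2 KO replicate 3, 49 without Batf3 KO replicate 3 and 55 without Batf3 KO replicate 2. A fit of all 15 arrays without a term for their scale called 0 genes in limma (11 at an unadjusted p under 0.05). The split by direction was not stable either, with 31 higher and 24 lower without Batf3 KO replicate 2, and 12 higher and 37 lower without Batf3 KO replicate 3. In all, 27 of the 116 kept their call with each of the 4 arrays left out in turn.

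**Figure D1:**
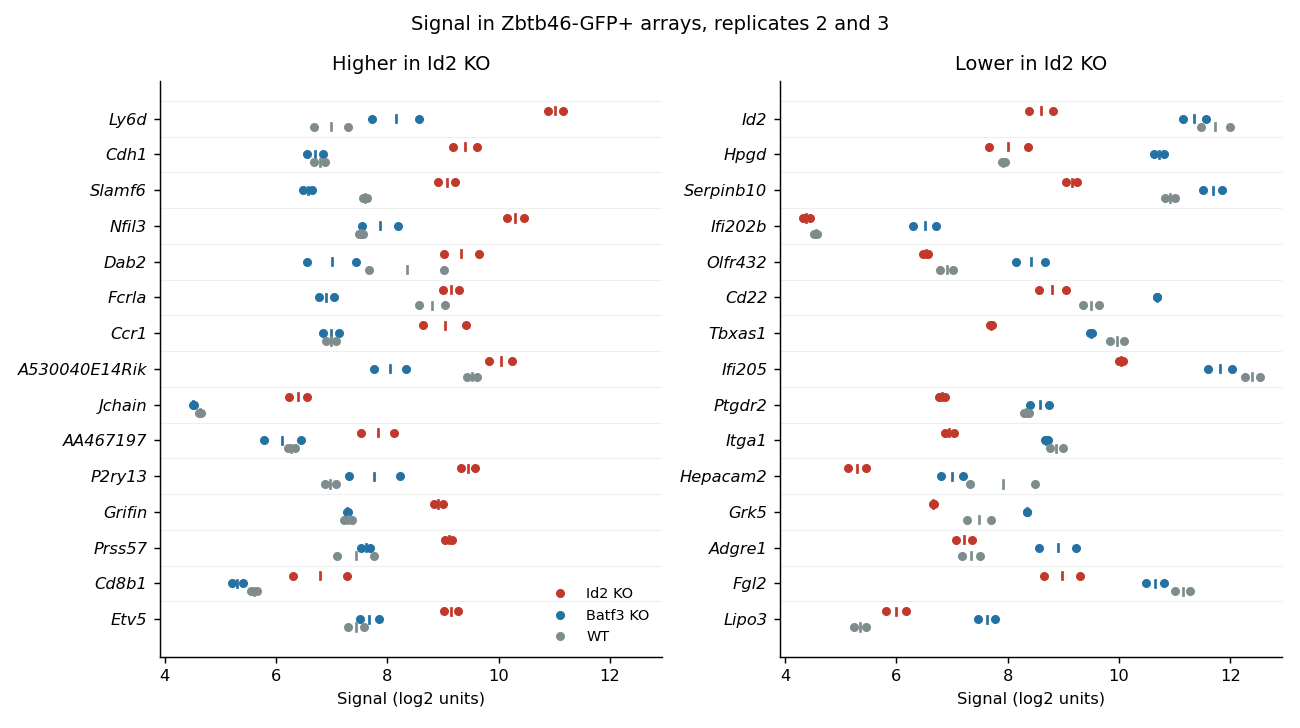
Log2 signal (horizontal axis) of the 15 genes with the largest increase and the 15 with the largest decrease in Id2 KO, with a point for each array (replicates 2 and 3) and a bar for each group's mean. The red Id2 KO points are separate from the blue Batf3 KO points in every row because the genes were chosen to be so. The grey WT points lie near one knockout, between them or outside both, as for Ly6d (WT 6.68 and 7.30) and Ifi205 (WT 12.53 and 12.26).

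The replicate 1 pair, which entered no fit, was compared in direction. Of the 116 called genes, 25 had identical values in this pair, and of the 91 others 90 differed in the same direction as in the fit (98.9%). Over all genes tested, 7030 were not identical and 53.8% of these had the sign of the fit. The exception was Slain1, which was higher in Id2 KO in the fit (0.95) and lower in replicate 1 (-0.28). The differences were smaller in this pair. The median size in the called direction was 0.46 with identical genes at 0, and 0.68 without them, against 1.22 in the fit. The replicate 1 pair also differed in the pattern of sex-linked genes and had many identical values, whose part in the smaller differences was not tested.

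**Figure D2:**
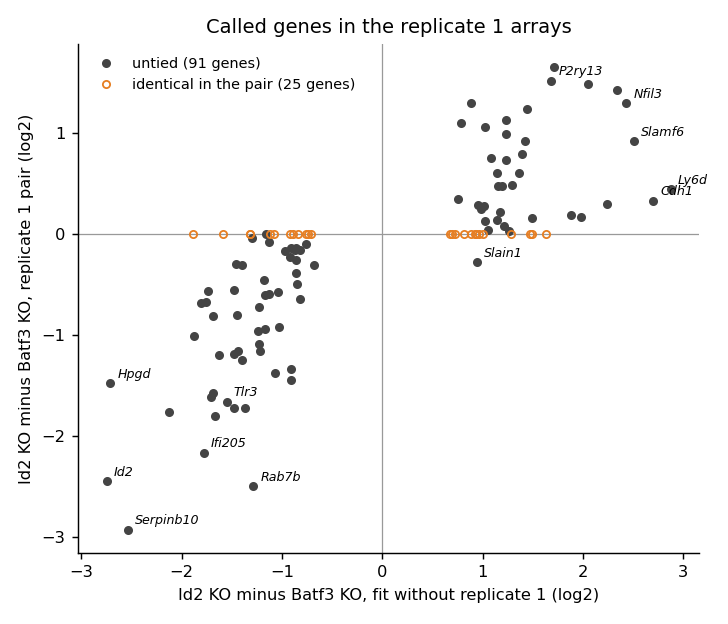
Each called gene's difference between Id2 KO and Batf3 KO in the fit (horizontal axis, log2) against the difference between the single replicate 1 arrays (vertical axis, log2). Of the 91 filled points, 90 have the same sign on both axes, and the 25 open points at 0 are genes with identical values in the pair.

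The targeted genes were read first. Id2 read 8.39 and 8.82 in Id2 KO, 11.14 and 11.56 in Batf3 KO and 11.999 and 11.47 in WT, so that both Id2 KO arrays were below all others of the stage. The difference between the knockouts was -2.75 (SE 0.32, adjusted p = 0.003, 6.71-fold lower), and in replicate 1 it was -2.45. In CDPs the arrays read 7.08 and 5.96 in Id2 KO and 7.76 and 7.83 in Batf3 KO. Batf3 read 8.21 and 8.38 in Id2 KO, 6.89 and 7.32 in Batf3 KO and 9.99 and 9.85 in WT. It was higher in Id2 KO than in Batf3 KO by 1.19 (SE 0.18, adjusted p = 0.0153), and it was lower than in WT in both knockouts, by -1.63 in Id2 KO (adjusted p = 0.00103) and -2.82 in Batf3 KO (adjusted p = 3.22e-05). Each knockout's own gene was thus at its lowest on the arrays labelled with it, and Batf3 in Id2 KO lay between Batf3 KO and WT. Whether the probe sets lie inside the deleted parts is not given in the sources used here. The call of Batf3 was lost with 3 of the 4 arrays left out in turn (adjusted p up to 0.159, without Id2 KO replicate 3), with arrays centred on their 75th percentile (0.132) and in a fit of all 15 arrays with a term for the 3 on another scale (0.25).

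Id2 acts on the E proteins, and none of these passed the test between the knockouts. Of 7 Id and E protein genes, Id2 was called and the other 6 were not, against 0.605% of all genes called. Tcf4, the E protein of pDCs, read 11.66 and 11.57 in Id2 KO and 10.93 and 10.40 in Batf3 KO, a difference of 0.95 (95% interval 0.38 to 1.52, adjusted p = 0.233), and both Id2 KO arrays were the higher. Tcf12 differed by 0.61 (adjusted p = 0.18) and Tcf3 by 0.28 (95% interval -0.09 to 0.65). Against WT, limma called Tcf4 (1.54, adjusted p = 0.0119) and Tcf12 (0.71, adjusted p = 0.0452) higher in Id2 KO, and not Tcf3 (0.25). In Batf3 KO none of them was called against WT (0.58, 0.10 and -0.03). Id3, a relative of Id2, read 6.14 and 6.10 against 5.99 and 5.89, below the median of each array, and differed by 0.18 (95% interval -0.33 to 0.70).

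Among 32 transcription factors of dendritic cells, 1 was called, against 0.605% of all genes. Nfil3, a basic leucine zipper factor required for cDC1 development, read 10.45 and 10.14 in Id2 KO, 8.19 and 7.55 in Batf3 KO and 7.49 and 7.57 in WT. It was 5.38-fold higher in Id2 KO than in Batf3 KO (log2 difference 2.43, SE 0.27, adjusted p = 0.00242), and 1.29 higher in replicate 1. In CDPs the same gene was high in all 3 genotypes, at 10.01 and 9.36 in WT, 10.11 and 9.59 in Id2 KO and 10.01 and 9.62 in Batf3 KO, values near those of the Zbtb46-GFP+ Id2 KO arrays and above those of Batf3 KO and WT at the later stage. Irf8, the factor that Batf3 sustains, was high on all 4 arrays (12.99 and 12.997 against 12.82 and 12.83) and differed by 0.17 (95% interval -0.15 to 0.49). Irf4, the factor of cDC2 cells, differed by -0.37 (95% interval -1.10 to 0.36) and Zeb2, which acts in pDCs and cDC2 cells, by 0.34 (95% interval -0.28 to 0.97). Spib and Bcl11a, both factors of pDCs, were higher on both Id2 KO arrays but did not pass, with differences of 1.30 (adjusted p = 0.689) and 0.68 (adjusted p = 0.674). The median of the list was 0.01.

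Among receptors of progenitors, Kit has a particular place because the cells were sorted on it. Kit, whose protein set the gate, read 10.34 and 10.32 in Id2 KO and 11.14 and 11.35 in Batf3 KO, and it was lower in Id2 KO by -0.91 (SE 0.15, adjusted p = 0.0252). WT read 11.05 and 11.37, level with Batf3 KO. No Id2 KO array overlapped the others, yet the call was lost without any 1 of the 4 arrays (adjusted p up to 0.246, without Batf3 KO replicate 3) and under centring on the 75th percentile (0.0814). Flt3, the receptor for the growth factor of dendritic cells, differed by 0.26 (95% interval -0.36 to 0.87) and Csf1r, the receptor of macrophage colony-stimulating factor, by 0.47 (95% interval -0.02 to 0.96). Of 20 genes of haematopoietic progenitors Kit was the one called, against 0.605% of all genes, and the median was 0.03.

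Most pDC genes had higher signal on the Id2 KO arrays, and few of them passed the test. Of 22 tested, 19 had differences above 0, 3 were called higher and 0 lower, 15 had an unadjusted p under 0.05 in limma, and the median was 0.75. Over all genes tested, 47% were above 0, 0.266% were called higher, 5.48% had an unadjusted p under 0.05 and the median was -0.01. Lair1, an inhibitory receptor for collagen, read 10.16 and 9.94 in Id2 KO and 9.14 and 8.49 in Batf3 KO (difference 1.23, adjusted p = 0.0409). Sla2, an adaptor that dampens antigen receptor signalling, differed by 0.95 (adjusted p = 0.048) and Rpgrip1 by 0.73 (adjusted p = 0.0467). The largest difference of the list was in Siglech, a surface lectin that marks pDCs and their precursors. Siglech read 11.86 and 11.78 in Id2 KO, 10.42 and 9.23 in Batf3 KO and 8.19 and 9.32 in WT, a difference of 2.00 that did not pass (95% interval 0.98 to 3.02, adjusted p = 0.126). The 2 Batf3 KO arrays were far apart in this gene, and in replicate 1 the difference was 3.22. Irf7 (-0.28) and Tlr9 (-0.22), which serve the interferon response of mature pDCs, were not called.

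The 3 calls of the pDC list were close to the threshold. Lair1 lost its call when the replicate number was fitted as a block (adjusted p = 0.0538), and both Lair1 and Sla2 were called with 1 of the 4 arrays left out and not with the others (up to 0.382 and 0.483, without Id2 KO replicate 2). Rpgrip1 was not called with any 1 of the 4 arrays left out (up to 0.371, without Batf3 KO replicate 3). Sla2 and Rpgrip1 were also not called with a term for the replicate 1 arrays (0.161 and 0.406). The summed signal of the list on the linear scale was 35191 to 37605 in Id2 KO, 22359 to 28634 in Batf3 KO and 16957 to 22437 in WT. Among lists of other cells, the granule, mast cell and cell division genes were also mostly above 0. Granule and neutrophil genes were so in 17 of 18 (median 0.70, with 0 called and 4 at an unadjusted p under 0.05 in limma), with a summed signal of 49769 to 51338 in Id2 KO, 26236 to 36297 in Batf3 KO and 19520 to 21254 in WT. Cell division genes were above 0 in 23 of 23 (median 0.27, with 0 called and 4 at an unadjusted p under 0.05 in limma). Of the 9 erythroid and 19 NK, innate lymphoid and T cell genes limma called 0 (3 and 4 at an unadjusted p under 0.05), with medians of 0.02 and -0.15 and 5 of 9 and 5 of 19 above 0. Their summed signals, which weigh the brightest genes most, were nonetheless higher in Id2 KO. The erythroid genes summed to 1619 to 1620 in Id2 KO and 1018 to 1176 in Batf3 KO. The NK, innate lymphoid and T cell genes summed to 10139 to 10411 and 6910 to 8445, with 3583 to 6256 in WT. Mast cell and basophil genes were above 0 in 11 of 13 and summed to 2527 to 3148 in Id2 KO and 1145 to 1381 in Batf3 KO, with 0 of 13 called in limma (1 at an unadjusted p under 0.05) and Mcpt8, a basophil protease, at 10.12 and 9.60 and 7.47 and 8.03 (difference 2.11, adjusted p = 0.195). The part of these cells in the differences was not tested.

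**Figure D3:**
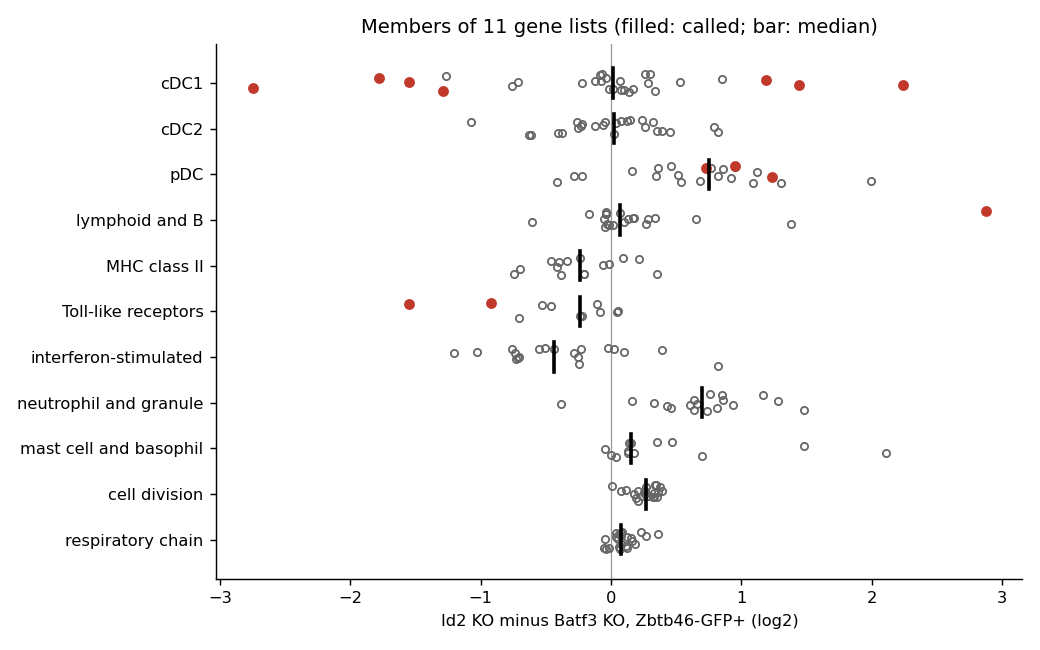
Difference between Id2 KO and Batf3 KO (horizontal axis, log2) for each tested member of the gene lists named on the vertical axis, filled where the gene passed an adjusted p of 0.05, with a bar at the list's median. The pDC list is centred at 0.75 and the granule list at 0.70, while the cDC1 list has called genes on both sides of a median of 0.01.

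Ly6d had the largest increase of all called genes. It encodes a surface protein that marks lymphoid progenitors biased to the B lineage and progenitors of pDCs. The arrays read 11.16 and 10.88 in Id2 KO, 8.56 and 7.73 in Batf3 KO and 6.68 and 7.30 in WT, so that Id2 KO was 7.33-fold above Batf3 KO (log2 difference 2.87, SE 0.39, adjusted p = 0.00868). In CDPs Ly6d had been no higher in Id2 KO (8.55 and 8.05) than in Batf3 KO (9.52 and 8.69). The difference was 0.44 in replicate 1, and the call was lost with 3 of the 4 arrays left out in turn (adjusted p up to 0.115, without Id2 KO replicate 2) and with a term for the replicate 1 arrays (0.27). The rest of the lymphoid list did not follow. Of 21 tested lymphoid and B lineage genes Ly6d was the 1 called, against 0.605% of all genes, and the median was 0.07. Blnk, a B cell adaptor, differed by 1.38 (adjusted p = 0.23), the cytokine receptor Il7r by 0.65, and the recombination genes Rag1 and Rag2 by 0.01 and 0.07. Jchain, the joining chain of secreted antibodies, was outside the list and was higher in Id2 KO by 1.89 (adjusted p = 0.00971), at 6.56 and 6.23 against 4.52 and 4.500, all below the median of the array. Its call was lost with a term for the replicate 1 arrays (0.145) and with 3 of the 4 arrays left out in turn (up to 0.146, without Id2 KO replicate 2).

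Called genes of the cDC1 lineage went both ways between the knockouts. Of 29 tested, 3 were called higher in Id2 KO (Fcrla, Clnk and Batf3) and 4 lower (Id2, Ifi205, Tlr3 and Rab7b). Against these 7, 0.605% of all genes were called, and 2 of the 7 are the deleted genes. Batf3, Fcrla, Ifi205 and Rab7b lie on chromosome 1, where 2.04% of genes were called against 0.51% on other chromosomes. Ifi205 differed by -2.58 in CDPs too, but with another order against WT. There Batf3 KO (mean 9.324) stood above Id2 KO (6.745) and WT (6.999). In Zbtb46-GFP+ cells the means were 11.819, 10.039 and 12.396 in the same order, with WT the highest. The part of the chromosome in these differences was not tested. Tlr3, a receptor for double-stranded RNA, read 7.77 and 7.82 in Id2 KO, 9.21 and 9.48 in Batf3 KO and 11.56 and 11.59 in WT. Both knockouts were below WT, by -3.78 in Id2 KO and -2.23 in Batf3 KO, and Id2 KO was the lower of them by -1.55 (SE 0.14, adjusted p = 4.98e-04). Rab7b, a small GTPase of late endosomes, had the same order, with 8.09 and 8.38 in Id2 KO, 9.50 and 9.55 in Batf3 KO and 10.93 and 11.09 in WT (difference -1.29, adjusted p = 0.0234). In replicate 1 the knockouts differed by -1.66 in Tlr3 and -2.50 in Rab7b. Clec9a, the receptor for dead cells, was lower in Id2 KO (9.80 and 9.79) than in Batf3 KO (10.49 and 10.52) by a difference that just missed the test (-0.71, adjusted p = 0.0556).

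The other cDC1 genes higher in Id2 KO had another order, with the Batf3 KO arrays the lowest. Fcrla, an intracellular protein related to Fc receptors, read 9.29 and 8.99 in Id2 KO and 8.57 and 9.04 in WT but 7.04 and 6.77 in Batf3 KO. The difference between the knockouts was 2.24 (SE 0.17, adjusted p = 2.89e-04). Against WT it was 0.34 in Id2 KO (95% interval -0.05 to 0.72) and -1.90 in Batf3 KO (adjusted p = 4.32e-04). Clnk, an adaptor of immunoreceptor signalling, read 7.85 and 7.61 in Id2 KO, 7.67 and 8.04 in WT and 6.34 and 6.23 in Batf3 KO (difference 1.44, adjusted p = 0.00317). Fcrla and Tlr3 kept their calls with each array left out in turn. Clnk was not called without Id2 KO replicate 2 (0.0579), and Rab7b not with any 1 of the 4 arrays left out (up to 0.273, without Id2 KO replicate 2).

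A further set of cDC1 genes, chosen after the values were seen, was low in both knockouts without a called difference between them. Xcr1, the chemokine receptor that defines cDC1 cells, read 6.29 and 6.12 in Id2 KO, 5.88 and 6.52 in Batf3 KO and 8.99 and 9.86 in WT, and the knockouts differed by 0.01 (95% interval -0.65 to 0.67). The same held for Gpr141b, at 6.11 and 5.53, 5.90 and 5.88 and 9.81 and 10.94 (difference -0.07, 95% interval -0.74 to 0.60). Gcsam differed by 0.26 (95% interval -0.21 to 0.73), Snx22 by -0.08 (95% interval -0.54 to 0.38) and the scavenger receptor Cd36 by 0.53 (95% interval 0.05 to 1.01). Differences from WT in these genes and in Gatm, a creatine synthesis enzyme, ran from -4.55 (Gpr141b in Id2 KO) to -2.02 (Gatm in Id2 KO). The interval of the difference between the knockouts reached furthest in Cd36. Xcr1, Gpr141b, Gcsam and Cd36 read below the array median on every fitted knockout array. At such low signal a difference between the knockouts could be missed, so these values do not show that they are equal.

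**Figure D4:**
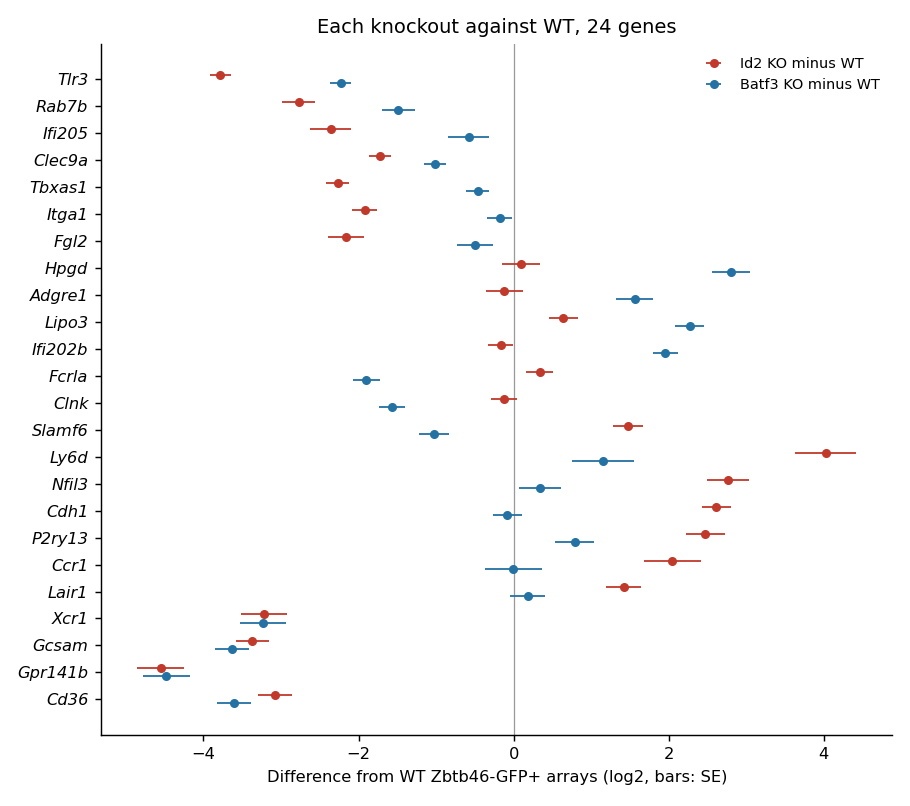
Difference of each knockout from WT in Zbtb46-GFP+ arrays (horizontal axis, log2, bars are the standard error of the difference), red for Id2 KO and blue for Batf3 KO. Tlr3 is below WT in both and lower in Id2 KO (-3.78 and -2.23), Fcrla is below WT in Batf3 KO (-1.90), and Xcr1 is low in both (-3.22 and -3.23). The comparisons share the WT arrays.

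No gene of cDC2 cells passed the test. Of 25 tested, limma called 0 (5 had an unadjusted p under 0.05), 13 were above 0 and the median was 0.02. Cd209a, a lectin of cDC2 cells and their precursors, had the largest difference, at 11.65 and 11.18 in Id2 KO and 12.56 and 12.42 in Batf3 KO (-1.08, adjusted p = 0.372). Sirpa differed by 0.45 (95% interval -0.26 to 1.16). In the list of MHC class II and antigen presentation, limma called 0 of 15 (3 at an unadjusted p under 0.05), with 12 below 0 and a median of -0.24. Cd74 differed by -0.38 and H2-Aa by -0.24. Of 11 genes of Toll-like receptors and their partners, 2 were called lower in Id2 KO (0.339% of all genes were), Tlr3 and Tlr2, a receptor for bacterial lipopeptides. Tlr2 read 8.38 and 8.30 against 9.36 and 9.15 (-0.92, adjusted p = 0.0251), and was not called with any 1 of the 4 arrays left out (up to 0.235, without Id2 KO replicate 3) or with a term for the replicate 1 arrays (0.0661). Interferon-stimulated genes were below 0 in 15 of 19 (median -0.44), with 0 called and 7 at an unadjusted p under 0.05 in limma. The lowest was Rsad2, an antiviral enzyme, at -1.20 (adjusted p = 0.101). For 23 respiratory chain genes the median was 0.08, with 0 called and 1 at an unadjusted p under 0.05 in limma.

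Several surface and signalling genes were higher in Id2 KO than in both Batf3 KO and WT. Cdh1, the adhesion protein E-cadherin, read 9.62 and 9.17 in Id2 KO, 6.56 and 6.84 in Batf3 KO and 6.68 and 6.89 in WT, a difference between the knockouts of 2.70 (SE 0.19, adjusted p = 2.89e-04, 6.47-fold). P2ry13, a receptor for ADP, read 9.56 and 9.32, 8.22 and 7.31 and 7.07 and 6.87 in the same order (1.68, adjusted p = 0.0141). Ccr1, a receptor for inflammatory chemokines, read 9.42 and 8.64, 7.12 and 6.84 and 6.90 and 7.07 (2.05, adjusted p = 0.0374). Ccr1 was the 1 called gene among 14 chemokine receptors, against 0.605% of all genes. In replicate 1 these genes differed by 0.33 (Cdh1), 1.52 (P2ry13) and 1.48 (Ccr1). Prss57, a serine protease of neutrophil granules, was higher by 1.49, Etv5, an ETS family transcription factor, by 1.47, and Cd8b1, the beta chain of CD8, by 1.49. Grifin, a galectin-related protein of the lens, and AA467197 differed by 1.63 and 1.71.

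Slamf6 and Dab2 differed in where WT lay. Slamf6, a receptor that binds itself on neighbouring cells, read 9.22 and 8.92 in Id2 KO, 6.64 and 6.49 in Batf3 KO and 7.55 and 7.63 in WT, so that WT was between the knockouts (difference 2.50, SE 0.19, adjusted p = 2.89e-04). Dab2, an endocytic adaptor, read 9.64 and 9.02 in Id2 KO, 7.43 and 6.56 in Batf3 KO and 7.67 and 9.02 in WT (2.33, adjusted p = 0.0252), and the wide spread of WT does not place it. Cdh1, Slamf6, Nfil3 and Grifin kept their calls with each of the 4 arrays left out. Ccr1, Etv5 and Prss57 were not called with any array left out, and Dab2, P2ry13, AA467197 and Cd8b1 were called with 1 of the 4 left out and not with the others. The highest adjusted p was without Id2 KO replicate 2 for Ccr1 (0.382), Etv5 (0.233), Dab2 (0.285), P2ry13 (0.18) and AA467197 (0.327), without Id2 KO replicate 3 for Prss57 (0.297) and without Batf3 KO replicate 2 for Cd8b1 (0.171). With a term for the replicate 1 arrays, Cdh1 (0.0547), Grifin (0.172), Prss57 (0.432), Cd8b1 (0.184) and Etv5 (0.322) were not called. Centring on the 75th percentile lost Cd8b1 (0.0652).

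Among the genes lower in Id2 KO, Hpgd had the largest difference after Id2. It encodes the enzyme that inactivates prostaglandins. The arrays read 8.37 and 7.67 in Id2 KO, 10.82 and 10.63 in Batf3 KO and 7.89 and 7.95 in WT, a difference of -2.71 (SE 0.25, adjusted p = 5.91e-04, 6.54-fold). Here Batf3 KO stood above WT (2.81, adjusted p = 3.54e-04) and Id2 KO differed from WT by 0.10 (95% interval -0.45 to 0.64). Adgre1, an adhesion receptor of macrophages, read 7.07 and 7.37, 9.23 and 8.57 and 7.17 and 7.50 in the same order (-1.68, adjusted p = 0.00985). Tnfsf8, the ligand of CD30, read 6.24 and 6.27, 7.72 and 7.66 and 6.44 and 6.68 (-1.44, adjusted p = 4.98e-04). In these 3 genes Batf3 KO was above WT and Id2 KO, and in replicate 1 they differed by -1.48, -0.81 and -1.16. Adgre1 was the 1 called gene among 16 monocyte and macrophage genes, whose median was -0.10, against 0.605% of all genes called. The kinase Grk5, which desensitises G protein-coupled receptors, and Cd22, an inhibitory lectin best known from B cells, were lower in Id2 KO by -1.69 (adjusted p = 0.0023) and -1.88 (adjusted p = 0.00273).

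Other genes read lower in Id2 KO than in both Batf3 KO and WT. Tbxas1, thromboxane synthase, read 7.72 and 7.68 in Id2 KO, 9.49 and 9.52 in Batf3 KO and 9.84 and 10.10 in WT (-1.81, SE 0.15, adjusted p = 4.67e-04). Ptgdr2, a receptor for prostaglandin D2, read 6.77 and 6.88, 8.40 and 8.75 and 8.29 and 8.39 (-1.75, adjusted p = 4.86e-04). Itga1, a collagen-binding integrin chain, read 6.87 and 7.05, 8.67 and 8.72 and 8.77 and 8.99 (-1.74, adjusted p = 5.91e-04). Against WT these 3 genes differed by -2.27, -1.52 and -1.92 in Id2 KO, all called, and by -0.46, 0.24 and -0.18 in Batf3 KO, none called in limma. Fgl2, a fibrinogen-like protein, differed by -1.67 (adjusted p = 0.00912), Hepacam2, an adhesion molecule, by -1.70 (adjusted p = 0.0339) and Serpinb10, an intracellular protease inhibitor, by -2.53 (adjusted p = 0.0387). Serpinb10 read 9.06 and 9.24 in Id2 KO and 11.52 and 11.85 in Batf3 KO, and in replicate 1 it had the largest difference of the 116 called genes (-2.93). Serpinb10 (up to 0.323) and Hepacam2 (0.339) were not called with any 1 of the 4 arrays left out, with Id2 KO replicate 2 the worst. Adgre1 and Fgl2 were called with 2 of the 4 arrays left out and not with the others, up to 0.152 without Id2 KO replicate 2 for Adgre1 and 0.0993 without Batf3 KO replicate 3 for Fgl2. Hpgd, Tnfsf8, Grk5, Cd22, Tbxas1, Ptgdr2 and Itga1 kept their calls throughout.

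The place of the WT mean is given as a description. Of the 51 genes higher in Id2 KO, the WT mean was nearer to Batf3 KO in 43 and nearer to Id2 KO in 8, and it was below both knockouts in 26, between them in 22 and above both in 3. Of the 65 genes lower in Id2 KO, WT was nearer to Batf3 KO in 40 and nearer to Id2 KO in 25, and it was between the knockouts in 40, above both in 20 and below both in 5. Over all 19187 genes WT was nearer to Batf3 KO in 11420. Against WT, 331 genes were called in Id2 KO (1.73%) and 57 in Batf3 KO (0.297%). A block for the replicate number gave 525 in Id2 KO. The calls against WT were 202 higher (1.05%) and 129 lower (0.672%) in Id2 KO, and 17 higher (0.0886%) and 40 lower (0.208%) in Batf3 KO. Which direction held more calls turned with 1 array. Id2 KO had 103 higher and 165 lower without WT replicate 2 and 57 higher and 62 lower without Id2 KO replicate 2, and Batf3 KO had 20 higher and 15 lower without Batf3 KO replicate 3.

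Promoters of the genes with the largest differences are shown because Id2 acts through E proteins, which bind the E-box, and Batf3 through AP-1 sites. The sequences are the 250 bases upstream of the start site in RefSeq (GRCm38.p6), for the 3 genes with the largest difference in each direction that have an entry. They are written 5′ to 3′ on the strand of the gene, and capitals mark matches, on either strand, to the E-box CAGNTG, the AP-1 site TGANTCA or the NFIL3 site TTANGTAA, which do not overlap here. The first 3 genes were higher in Id2 KO and the last 3 lower.
Slamf6, chr1:171917212-171917461, plus strand: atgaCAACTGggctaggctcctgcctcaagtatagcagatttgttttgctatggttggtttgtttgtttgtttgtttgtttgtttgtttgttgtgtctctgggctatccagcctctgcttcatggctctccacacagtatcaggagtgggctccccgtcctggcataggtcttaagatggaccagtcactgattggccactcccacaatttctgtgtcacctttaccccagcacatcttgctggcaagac
Nfil3, chr13:52981040-52981289, minus strand: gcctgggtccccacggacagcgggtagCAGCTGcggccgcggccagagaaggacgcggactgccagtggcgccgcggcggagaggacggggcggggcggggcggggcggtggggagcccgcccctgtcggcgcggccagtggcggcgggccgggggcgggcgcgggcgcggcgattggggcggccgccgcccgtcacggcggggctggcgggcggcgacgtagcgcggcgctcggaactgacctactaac
Dab2, chr15:6299539-6299788, plus strand: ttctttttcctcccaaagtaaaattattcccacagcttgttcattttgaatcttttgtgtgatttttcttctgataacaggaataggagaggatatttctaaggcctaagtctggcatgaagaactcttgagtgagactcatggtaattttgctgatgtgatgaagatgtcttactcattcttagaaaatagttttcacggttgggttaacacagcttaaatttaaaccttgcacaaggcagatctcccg
Id2, chr12:25096093-25096342, minus strand: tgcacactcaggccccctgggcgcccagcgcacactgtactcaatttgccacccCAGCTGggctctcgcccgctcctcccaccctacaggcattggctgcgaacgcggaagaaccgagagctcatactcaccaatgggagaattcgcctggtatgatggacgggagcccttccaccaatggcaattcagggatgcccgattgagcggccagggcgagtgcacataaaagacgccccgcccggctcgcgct
Hpgd, chr8:56294302-56294551, plus strand: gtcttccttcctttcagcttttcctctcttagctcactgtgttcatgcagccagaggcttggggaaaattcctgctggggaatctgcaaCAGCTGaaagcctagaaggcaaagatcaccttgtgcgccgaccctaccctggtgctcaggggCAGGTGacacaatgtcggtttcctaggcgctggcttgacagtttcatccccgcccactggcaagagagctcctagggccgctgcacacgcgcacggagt
Serpinb10, chr1:107528753-107529002, plus strand: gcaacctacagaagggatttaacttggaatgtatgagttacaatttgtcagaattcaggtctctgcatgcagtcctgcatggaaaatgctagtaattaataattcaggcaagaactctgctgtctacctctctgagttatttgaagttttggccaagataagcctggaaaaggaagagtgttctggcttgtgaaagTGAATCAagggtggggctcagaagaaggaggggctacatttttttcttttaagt
Slamf6, Nfil3 and Id2 had 1 E-box each, Hpgd had 2, Serpinb10 had 1 AP-1 site, and Dab2 had no match. The E-box occurred in 44.6% of 25748 autosomal promoters of this length. It was in 23 of 40 promoters of genes called higher in Id2 KO (57.5%) and in 18 of 53 of genes called lower (34.0%). The AP-1 site occurred in 6.9% of all promoters, in 4 of 40 (10.0%) and in 6 of 53 (11.3%), and the NFIL3 site in 2.0%, 1 of 40 (2.5%) and 3 of 53 (5.7%). These shares were not tested, and a match to a motif is not a bound site.

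Chromosome 1, which carries Batf3, held 23 of the 116 called genes. That is 2.04% of its 1126 tested genes, against 0.51% of the 18061 on other chromosomes. Of the 23, 12 were higher in Id2 KO and 11 lower. Within 200 tested genes of Batf3, a window set after seeing the values, 13 of 236 were called (5.51%), against 10 of 890 on the rest of the chromosome (1.12%). The window holds Slamf6, Fcrla, Batf3 and a cluster of p200 genes, interferon-inducible genes for proteins that bind DNA. Of 9 p200 genes tested, 3 were called lower in Id2 KO and 1 higher, against 0.339% and 0.266% of all genes, and these genes are among those counted in the window.

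The p200 genes did not move together. Ifi202b read 4.32 and 4.45 in Id2 KO and 4.58 and 4.52 in WT but 6.72 and 6.31 in Batf3 KO, a difference between the knockouts of -2.13 (SE 0.16, adjusted p = 2.89e-04), with signals below the median of the array. The olfactory receptor gene Olfr432, 3 tested genes away, was likewise raised in Batf3 KO, at 6.49 and 6.57 in Id2 KO, 7.02 and 6.79 in WT and 8.67 and 8.16 in Batf3 KO (-1.89, adjusted p = 0.00309). Ifi205 had another order, at 10.01 and 10.07 in Id2 KO, 11.60 and 12.04 in Batf3 KO and 12.53 and 12.26 in WT (-1.78, adjusted p = 0.0141). Ifi203 was the one higher in Id2 KO, at 11.32 and 11.41 against 10.28 and 10.28 in Batf3 KO and 11.75 and 11.30 in WT (1.09, adjusted p = 0.0141), and Ifi214 differed by -0.91 (adjusted p = 0.0487). The p200 genes are alike in sequence, and how much signal their probe sets take from one another was not tested. Atf3, a stress-induced relative of Batf3 that lies 2 tested genes from it, was lower in Id2 KO by -0.91 (adjusted p = 0.043). Atf3 and Batf3 were the 2 called among 12 genes of the Batf and AP-1 families, whose median was -0.12, against 0.605% of all genes called, and Batf3 is itself a deleted gene.  Ifi202b and Olfr432 kept their calls with each array left out. Ifi203 and Ifi214 were not called with any array left out, and Ifi205 and Atf3 were called with 1 of the 4 left out and not with the others. The highest adjusted p was without Id2 KO replicate 2 for Ifi205 (0.155), Ifi214 (0.449) and Atf3 (0.334), and without Id2 KO replicate 3 for Ifi203 (0.141). Centring on the 75th percentile lost Ifi203 (0.11), Ifi214 (0.245) and Atf3 (0.0516), a term for the replicate 1 arrays lost Olfr432 (0.172) and Atf3 (0.161), and the replicate block lost Atf3 (0.0526).

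**Figure D5:**
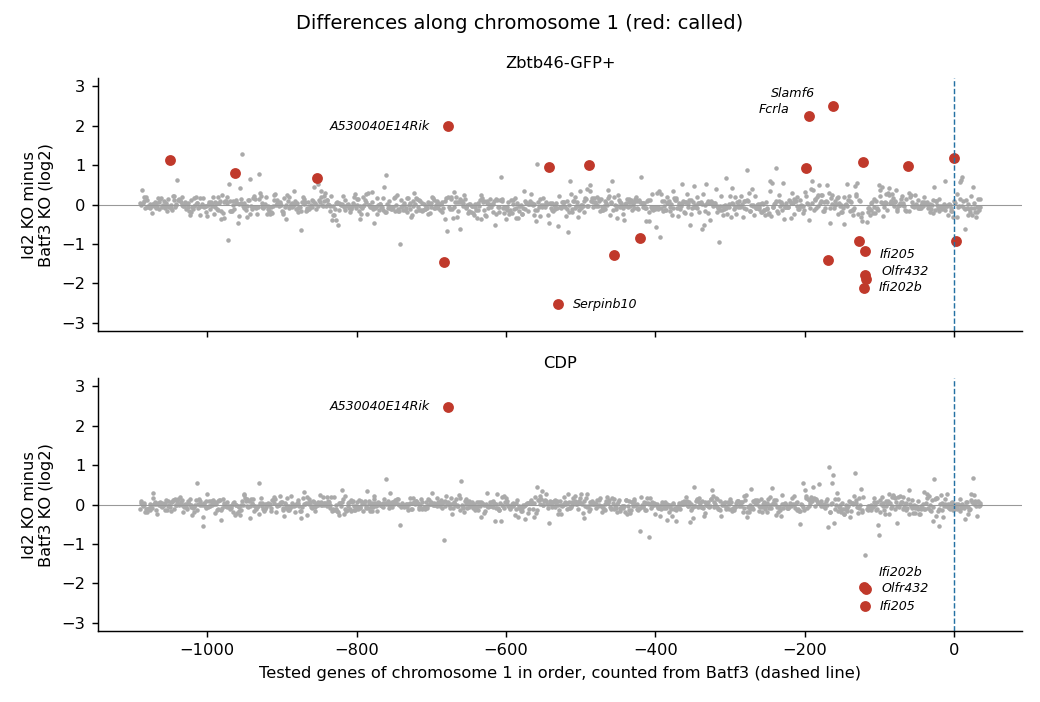
Difference between Id2 KO and Batf3 KO (vertical axis, log2) of the tested genes of chromosome 1 in their order, counted from Batf3 (horizontal axis, in genes), in Zbtb46-GFP+ arrays (top) and CDP arrays (bottom), red where called. Ifi202b, Olfr432 and Ifi205 are low in both panels, while Slamf6 and Fcrla are high in the top panel.

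CDPs of the 2 knockouts were read on 4 other arrays, which enter the comparison above only through the spread that all 12 arrays of the fit share. Of the 19187 genes, 5 were called (0.0261%), 1 higher (0.00521%) and 4 lower (0.0208%) in Id2 KO, and 267 had an unadjusted p under 0.05. Each of the 5 was also called in Zbtb46-GFP+ cells with the same sign, and 4 lie on chromosome 1. Ifi205 read 7.16 and 6.33 in Id2 KO CDPs (replicates 1 and 2) and 9.37 and 9.28 in Batf3 KO CDPs (-2.58, adjusted p = 0.0074). WT CDPs read 7.28 and 6.71 in this gene. Ifi202b differed by -2.08 (adjusted p = 0.00103), Olfr432 by -2.14 (adjusted p = 0.0074) and Lipo3, a lipase gene on chromosome 19, by -1.45 (adjusted p = 0.0346). A530040E14Rik was the one higher in Id2 KO, at 9.53 and 8.99 against 6.89 and 6.65 (2.49, adjusted p = 0.0154). WT CDPs read 4.24 and 4.34 in Ifi202b, 6.10 and 6.16 in Olfr432 and 8.94 and 8.13 in A530040E14Rik. In these genes and in Ifi205 the WT mean was nearer to Id2 KO than to Batf3 KO. In Lipo3 WT CDPs read 5.19 and 5.63, below both knockouts. In Zbtb46-GFP+ cells Lipo3 read 6.18 and 5.81 in Id2 KO, 7.77 and 7.47 in Batf3 KO and 5.46 and 5.24 in WT (-1.63, adjusted p = 0.00273), and A530040E14Rik read 10.23 and 9.83, 8.34 and 7.76 and 9.43 and 9.61 (1.98, adjusted p = 0.0114). The call of A530040E14Rik was lost with 2 of the 4 arrays left out in turn (up to 0.165, without Id2 KO replicate 2) and with a term for the replicate 1 arrays (0.148). In the CDP comparison Ifi202b kept its call with each of the 4 CDP arrays left out in turn. Ifi205 lost it without either Batf3 KO array (up to 0.146, without replicate 1). Olfr432 (up to 0.146, without Batf3 KO replicate 1) and A530040E14Rik (up to 0.331, without Batf3 KO replicate 2) kept it only without Id2 KO replicate 2, and Lipo3 was not called with any 1 of the 4 left out (0.128 to 0.634, the highest without Batf3 KO replicate 2). A term for the replicate 1 arrays lost Olfr432 (0.296) and A530040E14Rik (0.19), and centring on the 75th percentile lost Lipo3 (0.194). The CDP count itself ran from 1 to 9 with an array left out, the lowest without either Batf3 KO array and 2 and 9 without the first and second Id2 KO arrays.

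A test of the interaction asked whether the difference between the knockouts changed with the stage, and called 9 genes (0.0469%), 3 higher (0.0156%) and 6 lower (0.0313%). Id2 KO minus Batf3 KO was higher in Zbtb46-GFP+ cells than in CDPs for Cdh1 (2.28, adjusted p = 0.0164), Fcrla (2.11, adjusted p = 0.0164) and Grifin, and lower for Ptgdr2 (-1.82, adjusted p = 0.0164), Itga1, Tnfsf8, Tlr3, Tbxas1 and Ptpn22. Cdh1 read 6.95 and 6.58 in Id2 KO CDPs and 6.26 and 6.45 in Batf3 KO CDPs, close to the Batf3 KO level of the later stage. Tlr3 read 5.604 and 5.56 in Id2 KO CDPs and 5.68 and 5.43 in Batf3 KO CDPs, all far below the Zbtb46-GFP+ values of either knockout. For Id2 itself the stage term was -1.47 (95% interval -2.47 to -0.48) and for Nfil3 2.39 (95% interval 1.55 to 3.24, adjusted p = 0.0763), neither past the threshold. None of the 9 kept its call with each of the 8 knockout arrays left out in turn, and each was called with 0 (Ptpn22) to 3 (Ptgdr2) of them left out. A replicate block raised this count to 23. With an array left out the count ran from 0 to 8, with 0 without either Batf3 KO CDP array, Batf3 KO Zbtb46-GFP+ replicate 3 or either Id2 KO Zbtb46-GFP+ array, where limma still gave 398 to 560 genes at an unadjusted p under 0.05.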

How the data were processed

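Total RNA was purified on columns from sorted bone marrow cells and labelled with the Affymetrix WT Pico kit, per the labels' protocols. The authors deposited one intensity for each of 28853 probe sets on 15 arrays, made with Affymetrix Expression Console and RMA, per the submitters' processing notes, which give no versions. RMA makes arrays of one run comparable, yet replicate 1 of each Zbtb46-GFP+ group is on another scale, and so it was left out of the fit. The values are linear, and log2 was taken here. The number of arrays limits the precision.

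Of the probe sets, 21789 have a single gene symbol, 1621 have several and 5443 are not listed in the platform annotation. The probe set with the highest mean was kept for each gene. Of 19938 genes, 751 on X and Y were left out, and 19187 were tested. RefSeq (21763 single-symbol probe sets matched) gave chromosomes and gene order, since the build of the array is not given in the sources used here.

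limma 3.58.1 in R 4.3.3 fitted 6 group means to 12 arrays, 2 a group (6 residual and 4.9 prior degrees of freedom). Two-sided p-values were adjusted over all genes by the method of Benjamini and Hochberg, and a gene is called at an adjusted p under 0.05. Named genes are the targeted genes, regulators, the 15 called genes with the largest difference in each direction, called members of 20 gene lists (up to 4 a direction), and 5 a direction in CDPs and between stages. Others (Xcr1, Clec9a, Gcsam, Snx22, Gpr141b, Cd36, Gatm, Siglech, Irf7, Cd209a, Sirpa, Mcpt8, Kcnma1, Mctp2, Ptpn22, Slain1 and single list members) were chosen after their values were seen. The members and lists were chosen with earlier results of these data known. The lists were drawn from general knowledge of the cell types.

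The pairing of arrays by replicate number was examined through the correlation of residuals between the knockouts. Over 15 arrays these were 0.943, 0.890 and 0.836 for equal numbers, but also 0.67 and 0.78 between replicates 2 and 3, so the scale of the replicate 1 arrays enters all of them. Over the 12 arrays the value was 0.478 for equal numbers and -0.478 for unequal ones. With 2 arrays a group the residuals mirror each other, so these are the same value with its sign turned. Whether the numbers are a pairing cannot be settled from it. The main fit does not use the replicate numbers, and the blocked fit is given as an alternative. On simulated data of this comparison over 19187 genes, 75 of 100 genes changed by 1 on the log2 scale and 99 of 100 changed by 2 were recovered, with 4 false among 178 calls.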

Additional observations from a re-analysis of the deposited data

Results flagged for a closer look

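In 9 genes the difference between Id2 KO and Batf3 KO was not the same in CDPs and in Zbtb46-GFP+ cells, by the interaction term of the limma fit. Each gene is given with the difference of differences, Zbtb46-GFP+ minus CDP. Cdh1, the adhesion protein E-cadherin, differed between the stages by 2.28 (SE 0.26, adjusted p = 0.0164), from 0.42 in CDPs to 2.70 in Zbtb46-GFP+ cells. Fcrla, the intracellular Fc receptor relative, differed between the stages by 2.11 (SE 0.25, adjusted p = 0.0164), from 0.13 in CDPs to 2.24 in Zbtb46-GFP+ cells. Grifin, the galectin-related protein, differed between the stages by 1.49 (SE 0.20, adjusted p = 0.0299), from 0.15 in CDPs to 1.63 in Zbtb46-GFP+ cells. In these genes the CDP arrays of both knockouts were close and the later Id2 KO arrays were above all others of the knockouts. Ptgdr2, the prostaglandin D2 receptor, differed between the stages by -1.82 (SE 0.21, adjusted p = 0.0164), from 0.07 in CDPs to -1.75 in Zbtb46-GFP+ cells. Itga1, the collagen-binding integrin chain, differed between the stages by -1.81 (SE 0.23, adjusted p = 0.0207), from 0.08 in CDPs to -1.74 in Zbtb46-GFP+ cells. Tnfsf8, the ligand of CD30, differed between the stages by -1.61 (SE 0.18, adjusted p = 0.0164), from 0.17 in CDPs to -1.44 in Zbtb46-GFP+ cells. By array, Itga1 read 8.17 and 7.70 in Id2 KO CDPs and 6.87 and 7.05 in Id2 KO Zbtb46-GFP+ cells, against 7.86 and 7.85 and 8.67 and 8.72 in Batf3 KO. Tlr3, the receptor for double-stranded RNA, differed between the stages by -1.58 (SE 0.19, adjusted p = 0.0207), from 0.03 in CDPs to -1.55 in Zbtb46-GFP+ cells. Tbxas1, thromboxane synthase, differed between the stages by -1.57 (SE 0.21, adjusted p = 0.0299), from -0.23 in CDPs to -1.81 in Zbtb46-GFP+ cells. Ptpn22, a phosphatase that dampens immune receptor signalling, differed between the stages by -1.36 (SE 0.17, adjusted p = 0.0207), from 0.24 in CDPs to -1.13 in Zbtb46-GFP+ cells. Ptpn22 read 7.67 and 7.57 in Id2 KO and 8.69 and 8.79 in Batf3 KO at the later stage, with 9.19 and 9.34 in WT, and 7.73 and 7.77 against 7.45 and 7.57 in CDPs. None of these calls was stable to the loss of 1 array. Of the 8 fits that each leave out 1 knockout array, Ptgdr2 was called in 3, Cdh1, Fcrla and Tnfsf8 in 2, Grifin, Itga1, Tlr3 and Tbxas1 in 1 and Ptpn22 in 0. The highest adjusted p was without Id2 KO Zbtb46-GFP+ replicate 2 for Cdh1, Fcrla, Ptgdr2 and Tnfsf8 (0.139 each), Grifin (0.209), Tbxas1 (0.207), Itga1 (0.172) and Tlr3 (0.152), and without replicate 3 of that group for Ptpn22 (0.172). With a term for the replicate 1 arrays Tnfsf8 alone of the 9 was called (0.016), and Cdh1, Fcrla and Grifin had an adjusted p of 1. With centring on the 75th percentile Fcrla (0.041) and Itga1 (0.0486) were called and the other 7 were not (0.0522 to 0.284). With the replicate block all 9 were called (0.02 to 0.0349). The cause of these differences was not tested.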

How the results depend on the processing

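With 2 arrays a group, and signal with no measure of background on the arrays, differences near the threshold are the ones that depend on a setting. For the comparison of the knockouts in Zbtb46-GFP+ cells (116 called), 8 settings kept the count within 1.5 times, among them the replicate block (133), the term for the replicate 1 arrays (100), centring on the 75th percentile (116) and all probe sets unselected (115). The genes called were not all the same. Of the 116, 106 were also called with the replicate block, 92 with centring and 62 with the term. With the term 36 genes were higher in Id2 KO and 64 lower. The count was 221 with the 4 knockout arrays alone, 228 after quantile normalization and 500 with a block for the array sets, an alternative chosen after seeing the data, which pairs the array of each group with the higher 75th percentile. With that block more genes were higher than lower in Id2 KO (271 and 229), as against 51 and 65. It was 0 in limma in the fit of all 15 arrays (11 genes at an unadjusted p under 0.05) and 0 with a replicate block in that fit (35), and 37 to 55 with an array left out. In CDPs (5) the count was 0 with all 15 arrays in limma (3 at an unadjusted p under 0.05), 3 with the term, 0 with all 15 arrays and a replicate block (6), 8 with all probe sets, 12 with the array sets and 1 to 9 with an array left out. Between stages (9) these were 0 (0 at an unadjusted p under 0.05), 1, and 0 (0), and the count was 23 with the replicate block on 12 arrays, 38 after quantile normalization, 4 with centring on the 75th percentile (3 higher and 1 lower, as against 3 and 6), 16 without the dimmest genes, 128 with the array sets and 0 to 8 with an array left out. For Id2 KO against WT (331) it was 0 with all 15 arrays in limma (32), 192 with the term, 525 with the replicate block, 2 with that block on 15 arrays, 598 after quantile normalization, 1167 with the array sets and 106 to 268 with an array left out. For Batf3 KO against WT (57) it was 0 with all 15 arrays in limma (10), 28 with the term, 1 with the replicate block on 15 arrays, 105 after quantile normalization, 232 with the array sets (126 higher and 106 lower) and 28 to 85 with an array left out. Of 43 named genes called in Zbtb46-GFP+ cells, the replicate block kept 41 (all but Lair1, 0.0538, and Atf3, 0.0526), the term kept 29, centring on the 75th percentile 37, the 4 arrays alone 42 (not Atf3), the choice of probe set by variance 42 (not Ifi214), all probe sets 41 (not Sla2 and Ifi214) and eBayes with trend and robust 41 (not Sla2 and Rpgrip1), and the sign of none reversed in any setting run. The median of the replicate 1 pair was 0.46, and 0.68 with tied genes left out. The cause of these shifts was not tested. In the fits of fewer arrays a lone array is assumed to vary like those of the other groups.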

Other observations

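The probe set annotated to Kcnma1, a potassium channel gene on chromosome 14, had the largest difference of all genes tested without being called. Its number (10582545) lies nearer to that of Tlr3 on chromosome 8 (10578493) than to that of Mcpt8 on chromosome 14 (10420254). Whether it reads Kcnma1 was not tested. In Zbtb46-GFP+ cells it read 13.24 and 12.82 in Id2 KO and 5.35 and 5.64 in Batf3 KO, a difference of 7.54 (95% interval 3.89 to 11.19, adjusted p = 0.0943). In CDPs it read 13.10 and 12.67 in Id2 KO and 5.57 and 5.601 in Batf3 KO. The knockouts were thus far apart on every array, also in replicate 1 (8.94 against 3.65). The WT arrays were split, at 11.15 and 5.44 in CDPs and 5.92 and 11.05 in Zbtb46-GFP+ cells, and they enter the shared estimate of the spread. Mctp2, a membrane protein with C2 domains, was also apart without a call. It read 9.44 and 9.11 in Id2 KO, 7.70 and 6.18 in Batf3 KO and 5.88 and 6.64 in WT (difference 2.33, adjusted p = 0.0729), and in replicate 1 the difference was 2.27.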
